A study of Mus musculus with 18 samples.

Results

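MacroH2A2-GFP chromatin after 5 days of doxycycline (5d) was set against the pattern in the same uninduced cell line (0h), as regions called by the authors in 1 ChIP-seq library each, 2 of the 18 samples of the study. The cells were SV40-immortalized dermal fibroblasts from newborn male mice of the 129/S6 background, knocked out for both macroH2A1 and macroH2A2 and carrying a transgene that expresses macroH2A2-GFP when doxycycline is added. The 5d cells had received 0.5 ug/ml doxycycline and the 0h cells none, and the double knockout and the transgene were common to both. Chromatin was digested with MNase without crosslinking and pulled down through the GFP tag, so the 0h library holds what this pull-down recovered before induction. The 5d list holds 48386 regions and the 0h list 28980, all used. With 1 library per condition no test between the ChIP conditions is possible, the read depth behind a region is unknown, and every ChIP value here describes these libraries. The 6h and 24h libraries of the same doxycycline course and RNA-seq at 0h, 6h and 24h, with 3 biological replicates each, are used beside them.

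MacroH2A proteins are histone H2A variants that carry a large globular macrodomain on a linker outside the nucleosome core. They are found in broad domains over transcriptionally silent chromatin, including the inactive X chromosome of female cells, and are generally depleted from actively transcribed genes. The 2 genes that encode them in the mouse are named H2afy (macroH2A1) and H2afy2 (macroH2A2) in the older nomenclature.

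As examples of gene starts, 4 promoter windows of 300 bases are shown, 250 before and 50 after the RefSeq start of the gene (RefSeq, GRCm38.p6). They belong to genes described below and were chosen because the whole window lies in a region of 5d but not 0h (Trim54 and Ldc1), of both (Cubn), or of 0h but not 5d (Tubb3). Capitals mark CpG dinucleotides, the site of DNA methylation in mammals, and each sequence reads 5′ to 3′ on the strand of its gene.
Trim54, chr5:31116362-31116661, plus strand: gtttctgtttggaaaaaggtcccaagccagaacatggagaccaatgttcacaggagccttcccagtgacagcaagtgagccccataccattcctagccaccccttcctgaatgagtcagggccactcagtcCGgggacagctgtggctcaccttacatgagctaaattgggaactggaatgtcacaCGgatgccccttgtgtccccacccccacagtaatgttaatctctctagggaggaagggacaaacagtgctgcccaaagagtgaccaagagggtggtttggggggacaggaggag
Ldc1, chr4:130222246-130222545, minus strand: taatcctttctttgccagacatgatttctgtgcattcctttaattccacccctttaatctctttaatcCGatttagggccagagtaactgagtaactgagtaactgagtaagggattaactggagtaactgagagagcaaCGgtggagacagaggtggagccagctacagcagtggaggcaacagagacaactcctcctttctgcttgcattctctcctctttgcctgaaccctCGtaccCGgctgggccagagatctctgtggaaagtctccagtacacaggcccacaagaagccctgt
Cubn, chr2:13491827-13492126, minus strand: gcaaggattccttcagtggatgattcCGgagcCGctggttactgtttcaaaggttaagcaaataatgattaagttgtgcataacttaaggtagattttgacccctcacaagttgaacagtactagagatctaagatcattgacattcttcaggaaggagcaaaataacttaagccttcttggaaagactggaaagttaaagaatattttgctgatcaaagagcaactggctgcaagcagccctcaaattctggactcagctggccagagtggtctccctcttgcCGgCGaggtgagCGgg
Tubb3, chr8:123411303-123411602, plus strand: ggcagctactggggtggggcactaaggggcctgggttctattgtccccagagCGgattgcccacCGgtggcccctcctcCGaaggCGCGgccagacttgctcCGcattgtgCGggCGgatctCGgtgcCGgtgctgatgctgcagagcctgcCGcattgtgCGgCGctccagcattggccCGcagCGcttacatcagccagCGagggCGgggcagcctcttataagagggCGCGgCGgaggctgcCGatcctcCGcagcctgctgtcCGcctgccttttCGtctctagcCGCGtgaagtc
The Trim54 window holds 2 CpG and the Ldc1 window 4, the Cubn window 5 and the Tubb3 window 26. The Tubb3 count lies above the median of 6 CpG in all windows covered at 0h only. Of 21045 windows 19542 lay in neither list, and none of these is shown. All promoter windows are described further below.

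Regions covered 350.6 Mb at 5d, or 12.9% of the 2722 Mb of chromosomes 1 to 19, X and Y, against 201.1 Mb or 7.39% at 0h, a ratio of 1.74. The median region was 5000 bases wide in both lists, and the longest region was 339.6 kb at 5d and 176.4 kb at 0h. The authors' score, whose reference is not stated, was 1 for 53.3% of 5d regions and 69.9% of 0h regions, and is used here only to rank regions within a list. The running numbers in the lists skip 2612 values at 5d (5.12%) and 5573 at 0h (16.1%), and 69.5% and 76.2% of these gaps lie on chromosomes 8, 15 and 17. Regions behind skipped numbers were not analysed here, and values without the places they touch are given for the new and lost genes, the new domains and the 5d regions with no 0h base. The 6h and 24h lists skip numbers too (5.28% and 5.52%), with 66.8% and 69.8% of these gaps on the same 3 chromosomes. Their places were not checked, so low 6h and 24h values below are uncertain in the same way.

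Most of the uninduced pattern was found again after 5 days. Of the bases in 0h regions, 88.6% lay inside 5d regions, a shared length of 178.3 Mb and 6.88 times what 2 independent patterns of these sizes would share over the chromosomes. Of the 28980 regions of 0h, 95.5% held at least 1 base of a 5d region, and 91.3% had 50% or more of their bases in 5d regions (95% exact binomial interval 91.0 to 91.7%, which covers counting error over regions only). Another 4.54%, or 1316 regions with a median width of 4000 bases, held none. Where the 0h regions are split into 4 classes of equal number by width, 96.6% of the widest class (7800 bases and wider) had 50% or more of their bases covered at 5d, against 87.9 to 90.9% in the other three.

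The reverse share was much lower. Of the 5d bases, 50.8% lay in 0h regions, and the other 172.3 Mb were outside them. Of the 5d regions, 23690 or 49.0% held no 0h base, and these were narrow, with a median width of 3800 bases. The share of 5d regions with no 0h base was 70.2% in the narrowest of 4 such width classes of the 5d list, 63.2% and 47.6% in the middle ones and 14.9% in the widest. Regions with no 0h base made up 103.0 Mb, or 59.8%, of the 5d bases outside the 0h pattern. The remaining 40.2% lay in 5d regions that also held 0h bases, so there the 5d region extended past the 0h region or bridged several. A total of 4481 regions of 5d held 2 or more 0h regions, up to 11, and 37.2% of all 0h regions lay in such a joined region.

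**Figure D1:**
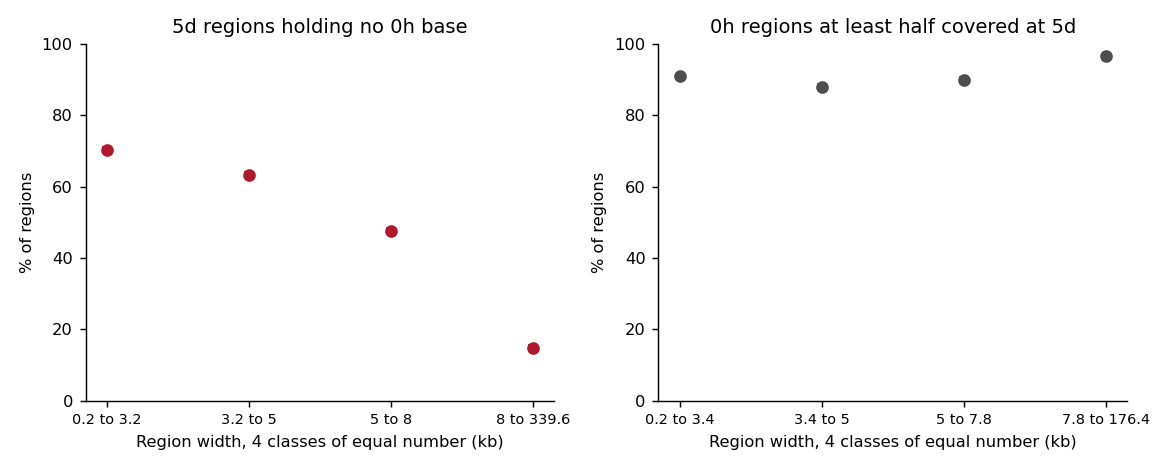
Percent of regions (y axis) in 4 classes of region width in kb with equal numbers of regions (x axis). The left panel gives 5d regions that hold no 0h base and the right panel 0h regions with 50% or more of their bases in 5d regions, with 95% exact binomial intervals over regions that are mostly narrower than the points. The share of 5d regions without a 0h base is 70.2% in the narrowest class and 14.9% in the widest, while 87.9% or more of the 0h regions in each class are found again. A wider region meets a base of any other list more easily, and the left panel is not adjusted for this.

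The 5d bases outside the 0h pattern lay close to it. Of these bases, 60.7% were within 10 kb of a 0h region and 93.8% within 100 kb, against 12.4% and 44.2% of all bases outside 0h regions. As 40.2% of these 5d bases lie in 5d regions that hold 0h bases, that part tends to be near by construction. The distance of the remaining part was not measured separately. In 26307 bins of 100 kb, the percent of each bin covered at 5d and at 0h had a Pearson correlation of 0.912 and a Spearman correlation of 0.876, given as a description across bins that share their libraries and region calling. Within single chromosomes Pearson's value was 0.787 to 0.950 and Spearman's 0.628 to 0.950. The median 5d coverage was 83.6% in the 987 bins with over 50% coverage at 0h, 48.6% in bins with 20 to 50%, 21.4% in bins with 5 to 20% and 8.2% in bins with up to 5%. Of the 16152 bins with no 0h region, 79.0% had none at 5d either, and 0.991% reached 20% coverage.

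The earlier libraries of the course hold part of the 5d pattern. Of the 5d bases outside 0h regions, 40.1% lay in 6h regions and 62.1% in 24h regions, against 80.5% and 93.6% of the bases shared by 5d and 0h and 14.1% and 13.3% of all bases. In neither the 6h nor the 24h list were 31.5% of the 5d bases outside 0h regions, or 54.2 Mb. Of the 22.8 Mb found at 0h and not at 5d, 42.0% lay in 6h regions and 56.9% in 24h regions. H2A.Z, another H2A variant, which is concentrated at promoters and was profiled in primary dermal fibroblasts of wild-type newborn female mice, covered 8.32% of the 5d bases outside 0h regions and 9.27% of the shared bases, against 7.45% of all bases.

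Coverage differed widely between chromosomes. On chromosomes 1 to 19, coverage was 4.61% (chromosome 14) to 32.5% (chromosome 15) at 5d and 1.61% to 26.2%, on the same chromosomes, at 0h. The share of 0h bases found at 5d differed little, at 86.7 to 91.5% on each of these chromosomes. Chromosomes 8, 15 and 17 were the most covered at both times, with 27.8% in all at 5d and 21.5% at 0h, against 10.8% at 5d and 5.46% at 0h on the others. The ratio of 5d to 0h covered bases was 1.29 on these 3 and 1.99 on the others. In length, the 5d bases outside 0h regions made up 28.7 Mb of the 328.1 Mb of these 3 and 143.6 Mb of the 2394 Mb of the others. Chromosome X, of which male cells carry a single copy, had 1.35% coverage at 5d and 0.316% at 0h. The chromosomes share 1 library and 1 region calling and are not replicates. Skipped numbers of both lists are most frequent on chromosomes 8, 15 and 17, and their part in these values was not tested.

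**Figure D2:**
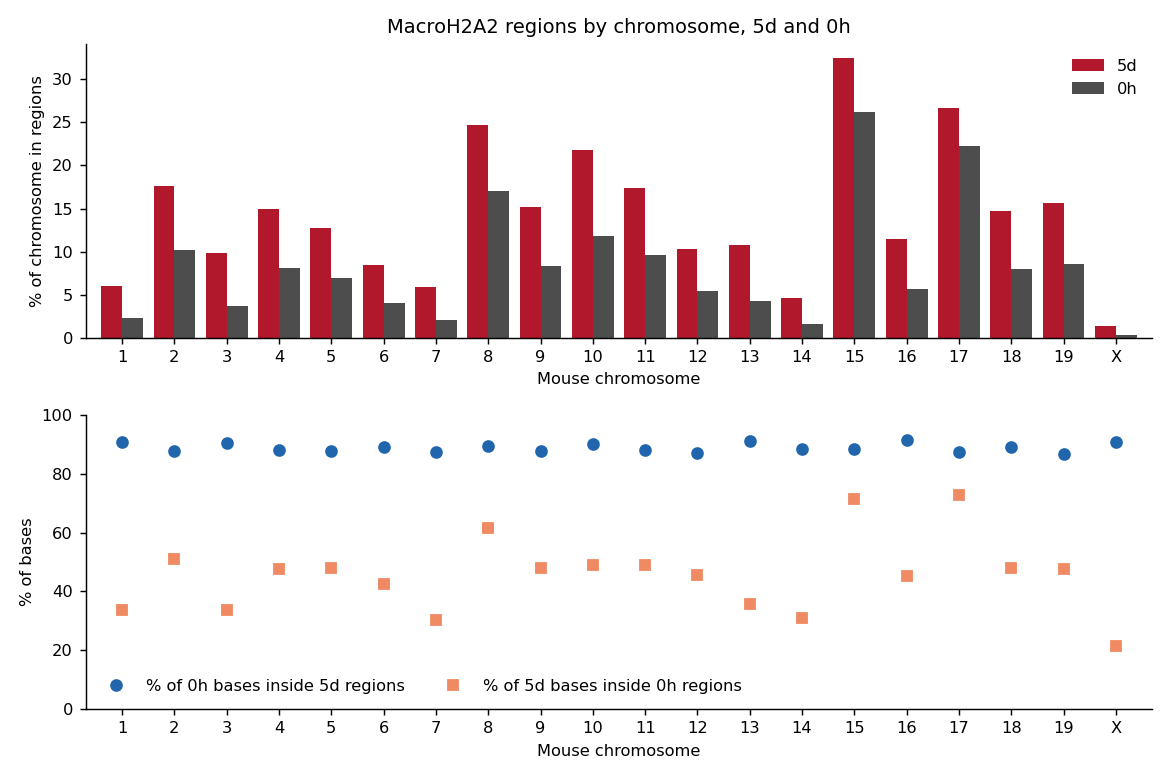
Top, percent of each chromosome (x axis) in macroH2A2 regions at 5d (red, left bars) and 0h (grey, right bars). Bottom, percent of 0h bases inside 5d regions (blue circles) and of 5d bases inside 0h regions (orange squares). The circles lie at 86.7 to 91.5% on chromosomes 1 to 19, while coverage ranges over 4.61 to 32.5% at 5d and 1.61 to 26.2% at 0h.

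Gene body coverage, the percent of a gene's bases inside regions after 1 kb was trimmed from each end, was computed over chromosomes 1 to 19 and X for 18415 genes that code for protein and span at least 3 kb. A gene is called covered at 80% or more and not covered at 20% or less. At 5d 510 genes were covered (2.77%), against 266 at 0h (1.44%), while 15827 had 20% or less at 5d (85.9%) and 16893 at 0h (91.7%). No covered base was found in 13947 genes at 5d (75.7%) and in 15164 at 0h (82.3%). New genes, covered at 5d and not at 0h, numbered 94 (0.51% of all genes). Shared genes, covered at both, numbered 208 (1.13%), and lost genes, covered at 0h and not at 5d, numbered 8 (0.0434%). Of the 266 genes covered at 0h, 78.2% were covered at 5d (95% exact binomial interval 72.7 to 83.0%), 50 had intermediate 5d coverage and 8 were lost. Of the 510 genes covered at 5d, 40.8% were covered at 0h (interval 36.5 to 45.2%), another 208 had intermediate coverage at 0h and 94 were new. Among the 4679 genes with any covered base, 3709 had higher coverage at 5d than at 0h and 797 lower. Of the shared genes 132 lay on chromosomes 8, 15 and 17, or 63.5%, as did 22 or 23.4% of the new genes and all 8 lost ones, while 13.7% of all genes lie there. The counts depend on how regions are called: with the 5d list of wider windows (1000 bases, gaps of 4000), set against the unchanged 0h list, 774 genes were new, and with untrimmed genes 48. The 774 do not hold all of the 94, as Best2 and Mfap2, for example, had 0% coverage in the wider list. Without chromosomes 8, 15 and 17, left out after seeing the data, 72 genes were new, 76 shared and 0 lost.

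**Figure D3:**
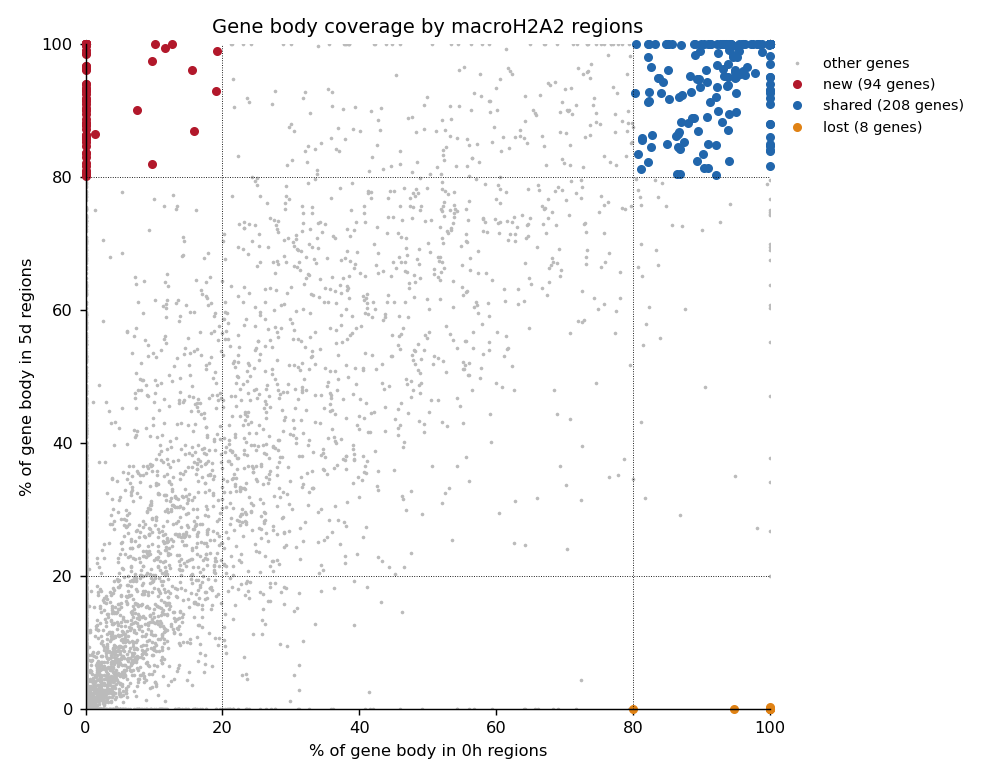
Percent of each gene body in 5d regions (y axis) against percent in 0h regions (x axis), 1 point per gene. Dotted lines mark the 20% and 80% limits that define the 94 new (red), 208 shared (blue) and 8 lost (orange) genes. Most new genes lie at 0% on the x axis, and few points of any kind lie far below the diagonal.

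The new genes were short and, like the other covered genes, mostly silent before induction. Their median length was 5542 bases, against 22746 for all genes, 11340.5 for all genes covered at 5d and 10408 for the shared ones. The median 5d region was 5000 bases wide, so a short gene reaches the 80% limit more easily. Gene length was not adjusted for here. Of the 92 new genes with an RNA row, 71 were silent at 0h (mean under 0.1 CPM, the counts of a gene scaled to a common library total), 16 low (0.1 to under 1 CPM), 5 medium (1 to under 10 CPM) and 0 higher. Silent genes were 77.2% of these, against 69.2% of the shared genes, 72.2% of all genes covered at 5d and 35.1% of all genes. The median coverage of the new genes was 18.1% at 6h and 88.0% at 24h. At 24h 55 of the 94 already passed 80%, and 14 had 20% or less at both 6h and 24h. The limits were not a natural boundary: Ngfr had 80.6% coverage at 5d and counts as new, while Fgf23 had 79.8% and does not, and both had 0% at 0h. At 22 of the 94 new genes the 0h list skips a running number at the gene, and 72 are left without these.

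The longest new gene was Ddx43, a DEAD-box RNA helicase known from germ cells, at chr9:78395777-78423589. Its coverage over the course was 15.5% at 0h, 41.1% at 6h, 95.3% at 24h and 96.1% at 5d. Trim54, a tripartite-motif protein of striated muscle, had 0% at 0h, 7.36% at 6h, 65.2% at 24h and 91.4% at 5d over chr5:31116612-31137626. In both genes the coverage was higher at each later time. Ngfr, the low-affinity neurotrophin receptor, had 0%, 23.1%, 91.8% and 80.6% at 0h, 6h, 24h and 5d. Cxcr5, the chemokine receptor of B cells and follicular helper T cells, had 0%, 58.6%, 76.2% and 87.2% at the same times. Ccl4, a chemokine of activated leukocytes, had 19.1% at 0h, 4.86% at 6h, 67.3% at 24h and 92.9% at 5d. Coverage of these 3 genes was 67.3% or more at 24h, and Ccl4 alone among them had less at 6h than at 0h.

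Of the other long new genes, Slc4a1, Ldc1, Tex55 and Nmbr had 31.6% coverage or less at 24h. Slc4a1, the anion exchanger of red blood cells, had 0% at 0h, 0% at 6h, 17.8% at 24h and 93.1% at 5d. Ldc1 had 0% at 0h and 6h, 31.6% at 24h and 86.0% at 5d. Tex55, named as testis expressed, had 1.35% at 0h, 32.9% at 6h, 12.3% at 24h and 86.5% at 5d, so it did not follow the time order. Nmbr, the neuromedin B receptor, had 0%, 51.5%, 17.8% and 85.7% at 0h, 6h, 24h and 5d, and its coverage was likewise lower at 24h than at 6h. Syce1l, related to a synaptonemal complex component, had 0%, 48.3%, 73.5% and 85.3% in the same order. The 0h list skips a running number at Tex55 and at Syce1l, so their 0h values are uncertain. With 1 library a time, such steps have no replicate check.

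The most expressed new genes had a mean below 5 CPM at 0h. Prl2c3, a prolactin-family hormone also known as a proliferin, had a mean of 4.53 CPM at 0h and coverage of 0% at 0h and 100% at 6h, 24h and 5d. At Prl2c3 the 0h list skips running numbers, so its 0% is uncertain. Lrrn4cl, a leucine-rich-repeat membrane protein, had 2.84 CPM and coverage of 0% at 0h, 27.1% at 6h and 100% at 24h and 5d. Cbln1, a secreted organizer of cerebellar synapses, had 2.09 CPM and coverage of 0% at 0h and 6h and 100% at 24h and 5d. Palm3, a paralemmin, had 1.12 CPM and coverage of 11.6%, 86.7%, 100% and 99.4% at 0h, 6h, 24h and 5d. Zfp882, a zinc finger gene with 1.27 CPM, had 0% coverage at 0h, 6h and 24h and 87.9% at 5d, and the 0h list skips a number there too.

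**Figure D4:**
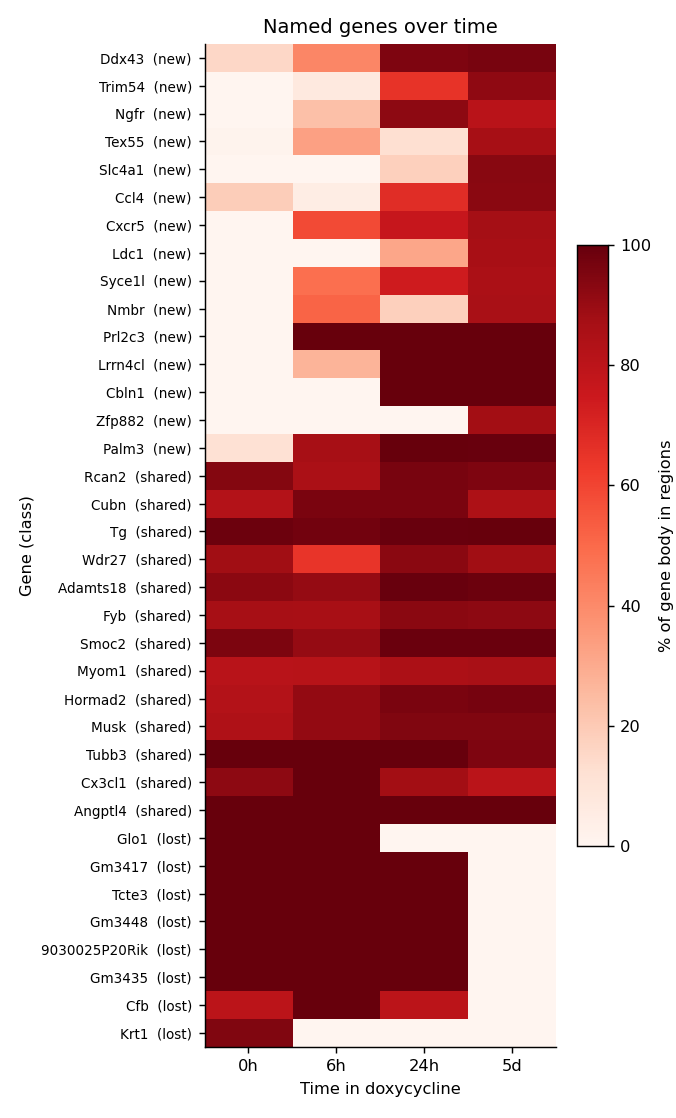
Percent of the gene body in macroH2A2 regions (colour scale, 0 to 100%) for the named new, shared and lost genes (rows) at 0h, 6h, 24h and 5d (columns), 1 library each. New genes are pale at 0h and mostly dark at 24h and 5d, shared genes are dark throughout, and the lost genes are pale at 5d.

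Shared genes were longer, and several were expressed at moderate levels, though 69.2% of those with an RNA row were silent at 0h. Rcan2, a regulator of calcineurin, had 95.1% coverage at 5d and 93.8% at 0h over a gene of 238165 bases (chr17:43801352-44039516). Tg, which encodes thyroglobulin, had 100% at 5d and 98.8% at 0h. Cubn, the intestinal and renal receptor cubilin, had 84.5% at 5d and 82.5% at 0h, with 13.9 CPM at 0h. Smoc2, a secreted matricellular protein, had 98.9% at 5d and 95.5% at 0h, with 21.8 CPM. Tubb3, a tubulin of neurons, had 95.1% at 5d and 100% at 0h, with 11.4 CPM, so its body was covered at both times although its promoter window was covered at 0h only. Angptl4, a secreted inhibitor of lipoprotein lipase, had 100% at both times and 7.74 CPM. Adamts18, Fyb, Hormad2, Musk, Myom1 and Wdr27, the other long shared genes, had 85.8 to 98.6% at 5d and 81.2 to 92.4% at 0h. Musk encodes the muscle-specific receptor kinase of the neuromuscular junction and Myom1 a sarcomere protein, both muscle genes.

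Lost genes were few and clustered. Glo1, the glyoxalase that detoxifies methylglyoxal, had 0.331% coverage at 5d and 100% at 0h, with 100% at 6h and 0% at 24h. Skipped numbers of the 24h list were not checked there, so the 0% at 24h is uncertain. Glo1 was highly expressed, with a mean of 146 CPM at 0h, and lies in the longest 0h region, chr17:30576401-30752800. Gm3417, 9030025P20Rik, Gm3448, Gm3435 and Tcte3 lie side by side on chromosome 17 between positions 14964189 and 15041559, and each had 0% at 5d and 100% at 0h, 6h and 24h. Whether these neighbours are near-identical copies that share reads was not tested, so their values are uncertain. Cfb, complement factor B, had 0% at 5d and 80.0% at 0h, and Krt1, an epidermal keratin, had 0% at 5d and 94.8% at 0h. Skipped numbers of the 5d list lie at 6 of the 8 lost genes, all but Cfb and Krt1, so the 0% of those 6 at 5d is uncertain. Krt1 was 100% covered in the 5d list called with wider windows and gaps, and Cfb 60.7%.

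Silent and lowly expressed genes made up most of the covered genes at both times. Of 6306 silent genes, 5.69% were covered at 5d and 2.79% at 0h. Of 1324 low genes, 6.95% were covered at 5d and 3.17% at 0h. Of 1914 medium genes, 2.14% were covered at 5d and 1.41% at 0h. Of 8422 genes at 10 CPM or more, 0.0594% (5 genes) were covered at 5d and 0.0831% (7 genes) at 0h. The same genes were measured in both libraries, so the intervals drawn in the plot by expression cover counting over genes only and give no test of 5d against 0h. Mean coverage of a gene body was 1.85 times as high at 5d as at 0h in silent genes, 1.74 in low, 1.43 in medium and 1.24 in high ones. Without chromosomes 8, 15 and 17, 3.495% of the silent genes were covered at 5d and 1.14% at 0h. The median gene was 18044 bases long in the silent class and 27505 in the high class, and length was not adjusted for.

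**Figure D5:**
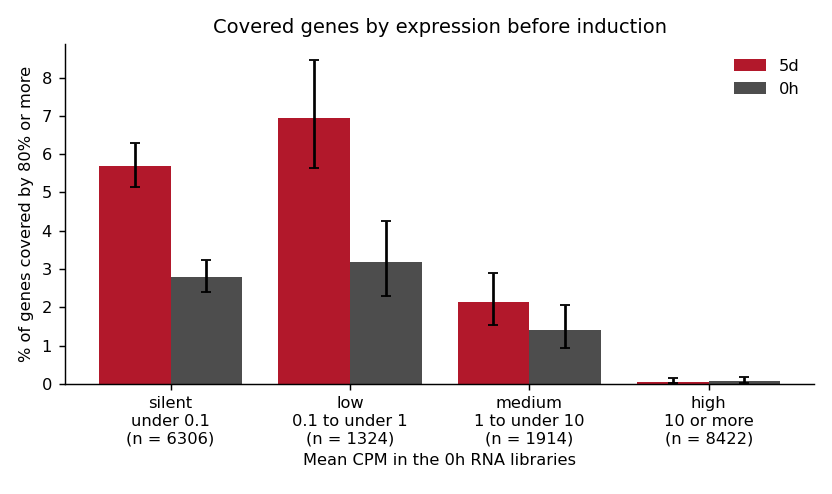
Percent of genes with 80% or more of the gene body in regions (y axis) at 5d (red, left bars) and 0h (grey, right bars), by mean CPM in the 0h RNA libraries (x axis). Error bars are 95% exact binomial intervals over genes. The silent and low classes reach 5.69 and 6.95% at 5d, and genes at 10 CPM or more stay at 0.0594%.

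Among gene groups, the 5d additions were scattered. Of the 21 gene lists described, 5 genes of 48 keratins and keratin-associated proteins were covered at 5d and 6 at 0h. Krt8, a keratin of simple epithelia, had 100% at 5d and 82.2% at 0h, and Krt18, its partner, which is named here after its values were seen, was new with 100% at 5d and 0% at 0h. Krt81, a hair keratin, was new as well, with 100% at 5d and 12.6% at 0h. Median coverage of the keratin list was 4.65% at 5d and 0% at 0h, while the median of all genes was 0% at both times. Of 137 vomeronasal receptors, the pheromone receptors of the nose, 5 were covered at 5d and 1 at 0h, and 113 had no covered base at 5d. Vmn2r86 was new, with 100.0% at 5d and 0% at 0h, beside Vmn2r85 with 100% at 5d and 85.7% at 0h. Of 91 potassium channels, 3 were covered at 5d and 0 at 0h, namely Kcna7, which was new (93.0% at 5d, 0% at 0h), Kcnk15 (100% at 5d, 38.4% at 0h) and Kcnv2 (88.3% at 5d, 74.5% at 0h). Of 131 olfactory receptors, 1 was covered at 5d and 3 at 0h. The covered share at 5d was 10.4% of the keratins, 3.65% of the vomeronasal receptors, 3.30% of the potassium channels and 0.763% of the olfactory receptors, against 2.77% of all genes. Krt8, Krt18 and Krt81 lie on chromosome 15, the most covered chromosome, with 32.5% in regions at 5d. These shares were not adjusted for chromosome, and its part in them was not tested.

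Developmental, fibroblast and matrix genes differed in their covered shares. Of 92 developmental transcription factors, 3 were covered at 5d (3.26%) and 1 at 0h (1.09%), against 2.77% of all genes at 5d and 1.44% at 0h. Foxf1, a forkhead factor of mesenchyme, was new (99.2% at 5d, 0% at 0h), Nkx2-5, a cardiac homeobox factor, was shared (96.8% at 5d, 92.2% at 0h), and Tbx2, a T-box factor, had 83.8% at 5d and 32.0% at 0h. Of 25 Hox genes, the same 3 were covered at both times (12%), Hoxc10, Hoxc13 and Hoxd13, and 20 had no covered base at 5d and 20 at 0h. Hoxc10 and Hoxc13 lie on chromosome 15, and the share was not adjusted for chromosome. Of 17 fibroblast identity genes, 3 were covered at 5d (17.6%) and 0 at 0h. Lum, the small proteoglycan lumican, had 100% at 5d and 28.8% at 0h, Dcn, which encodes decorin, had 89.6% at 5d and 65.6% at 0h, and Dpp4, a surface peptidase of dermal fibroblasts, had 81.2% at 5d and 43.5% at 0h. Lum and Dpp4 were silent in these cells at 0h, and Dcn had 1.84 CPM. Col14a1, a fibril-associated collagen, was covered at 5d with 88.2%, against 79.3% at 0h, alone among 59 collagen and matrix genes, and the 0h list skips running numbers there, so its 0h value is uncertain. Il6, an inflammatory cytokine, was shared with 100% at 5d and 92.3% at 0h, alone among 16 cytokine and secretory genes.

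Several groups held few or no covered genes. None of 49 clustered protocadherins, 26 cell cycle and replication genes or 5 clustered histone genes held a covered base at 5d or 0h. Among all genes, 75.7% held none at 5d and 82.3% at 0h. Only histone genes that span at least 3 kb were counted. Of 46 cytosolic ribosomal protein genes, 0 were covered at 5d and 1 at 0h, Rpl3l, the muscle form of a ribosomal protein, with 47.1% at 5d and 100% at 0h. Of 363 C2H2 zinc finger genes, 4 were covered at 5d (1.102%) and 1 at 0h (0.275%), among them Zfp474 (100% at both times) and Zfp882. No gene of 46 glutamate and GABA receptors, 49 synaptic adhesion and large neuronal genes or 28 Polycomb genes was covered at either time. Over all genes 2.77% were covered at 5d and 1.44% at 0h, so lists of this size can hold 0. The synaptic and large neuronal genes had a median length of 1139160 bases, and length was not adjusted for. Of these 49 genes 13 held no covered base at 5d, against 75.7% of all genes. Macroh2a1 had no covered base at 5d or 0h, and Macroh2a2 49.6% coverage at 5d and 46.9% at 0h.

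Most long 5d domains overlapped 0h regions to a large part, and few lay outside them. The 5d regions were joined across gaps of up to 4000 bases, which gave 1372 domains of 50 kb or more with a total of 131.9 Mb. Of these, 1011 or 73.7% had 50% or more of their bases in 0h regions, 355 or 25.9% had 10 to 50%, and 6 (0.437%) had 10% or less and count as new. The 355 intermediate domains held 26.2 Mb, with a median of 86.0% of their bases in regions at 5d and 40.2% at 0h, and the new domains 0.38 Mb. Joined in the same way, the 0h regions gave 564 domains of 50 kb or more, and 562 of them had 50% or more of their bases in 5d regions. The longest domain was 674.4 kb without a protein-coding gene, chr2:117387601-118062000, with 96.8% of its bases in regions at 5d and 88.5% at 0h. A 523.2 kb domain on chromosome 17 holds Dact2 and Smoc2 with 94.95% at 5d and 83.4% at 0h, and a 504.0 kb domain on chromosome 8 holds Dlgap2, a postsynaptic scaffold gene, with 93.8% at 5d and 83.6% at 0h.

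The 6 new domains were 50.2 to 79.6 kb long, and 4 of them hold no protein-coding gene. The longest, chr11:104728801-104808400, holds Efcab13 and Gm11639 and had 75.9% in regions at 5d and 5.03% at 0h, with 4.77% at 6h and 30.9% at 24h. The new domain chr13:12785001-12859400 is a single 5d region of 74.4 kb with Prl2c3, had no 0h base, and had 99.2% at 6h and 98.9% at 24h. The gene-free new domains were chr17:60444401-60519000, chr9:51503001-51554200, chr10:108109601-108160000 and chr4:93808001-93858200, with 71.8 to 87.4% in regions at 5d and 3.57 to 9.77% at 0h. The 0h list skips running numbers within 3 of the 6, the domains on chromosomes 11, 13 and 17, and 3 are left without them. With the 5d list of wider windows 203 domains were new against the same 0h list, and with only regions above the median score of each list 137 were. That score limit left out 69.9% of the 0h regions and 53.3% of the 5d regions.

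The longest 0h regions were found again too, apart from a few. The longest of all, which holds Glo1 with Btbd9 and Dnah8, had 86.2% of its bases in 5d regions, 37.1% in 6h regions and 0% in 24h regions, and the 5d list skips 4 numbers there. Skipped numbers of the 6h and 24h lists were not checked at this region, so its 6h and 24h values are uncertain. Those on chromosomes 15 and 8 and a region with Atl2 on chromosome 17 were 133.2 to 144.0 kb long and had 95.2 to 100% of their bases in 5d regions. The longest 0h region with no 5d base was chr8:45519801-45555800, 36.0 kb in Sorbs2, a cytoskeletal adaptor gene, with 92.8% in regions at 6h and 100% at 24h. The next were the chromosome 17 cluster with Tcte3 and chr15:10508801-10537600 in Ttc23l. At all 5 longest of these the 5d list skips a running number, so their absence at 5d is uncertain. Over the whole lists, 83.3% of the 5d regions without a 0h base and 74.9% of the 0h regions without a 5d base lie between regions with consecutive numbers in the other list.

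At promoters, macroH2A2 windows were poor in CpG at both times. Of 21045 RefSeq promoter windows, 499 lay wholly in regions at 5d only, 472 at both times, 135 at 0h only and 19542 in neither list. The median number of CpG was 4, 4, 6 and 14 in these groups, and the GC content 48.3, 50.0, 54.3 and 57.3%. Genes behind the windows were silent at 0h for 70.5% of the 5d-only windows and 68.6% of the shared ones, against 51.3% of the 0h-only ones and 30.5% of those in neither list. Of 78 windows of new genes, 30 were covered at 5d only and 39 were in neither list, with a median of 3 CpG in the first and 7 in the second. The windows of Ddx43 and Ngfr, whose bodies were new, hold 30 and 23 CpG and lay in neither list. The TATA-box sequence TATAAA, on either strand, occurred in 19.2% of the 5d-only windows and 24.8% of the shared ones, against 12.7% of all windows.

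RNA was sequenced at 24h and not, in the samples used here, at 5d, so the 24h contrast is the latest available. The induced gene itself was measured first: H2afy2 had 1752, 1707 and 1727 normalised CPM at 24h, against 10.5, 25.3 and 9.61 CPM at 0h. Every 24h library was above every 0h library, with a log2 fold change of 6.84 ± 0.14 (SE) and an adjusted p of 3.9e-24 in edgeR's quasi-likelihood test. H2afy, knocked out in these cells per the labels, averaged 57.0 CPM at 24h and 56.7 CPM at 0h, and the counts do not show which part of the gene the reads came from. Transgene reads are likewise counted with H2afy2 here. Of 12 fibroblast markers, 11 had 1 CPM or more at 0h, with Lum as the exception, and they summed to 10892 to 11147 CPM per library. Of markers of other cell types, 3 of 7 keratinocyte genes had 1 CPM or more, summing to 213 to 221 CPM with Itga6 the highest and Krt5 and Krt1 without a count, and 2 of 5 neuron genes, summing to 104 to 111 CPM with Map2 the highest. The endothelial, macrophage, melanocyte or Schwann, and muscle or adipocyte lists summed to 27.1 CPM or less each, and the part of these markers in the results was not tested.

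No gene that was new at 5d passed the test in RNA at 24h. Of 13785 genes tested, 575 rose (4.17%) and 396 fell (2.87%), 7.04% in all (edgeR, Benjamini-Hochberg adjusted p under 0.05). Of the 94 new genes 13 were expressed enough to be tested, and 0 were called in edgeR or DESeq2, with 0 at an unadjusted p under 0.05 in either. Their median log2 fold change was -0.12, against -0.0048 over all protein-coding genes tested. Prl2c3 had 4.41, 5.84 and 5.02 CPM at 24h and 3.93, 4.76 and 4.73 CPM at 0h, groups that overlap. Cbln1 had 1.85, 1.93 and 1.37 CPM at 24h and 1.76, 2.24 and 2.202 CPM at 0h, which overlap as well. Of the new genes 50 had no count in any 0h library, so a fall could not have been seen in them.

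Of the 208 shared genes 42 were tested, 1 rose and 1 fell. Angptl4 had 9.55, 8.79 and 10.2 CPM at 24h, against 7.20, 7.73 and 8.004 CPM at 0h, a log2 fold change of 0.32 ± 0.09 (SE, edgeR adjusted p = 0.024). Smoc2 had 16.7, 15.7 and 19.4 CPM at 24h, against 20.7, 23.4 and 20.6 CPM at 0h, a log2 fold change of -0.32 ± 0.06 (SE, edgeR adjusted p = 0.0016). In both genes the 3 libraries of 24h lay on one side of the 3 libraries of 0h. At 6h Smoc2 had 48.1, 49.0 and 50.5 CPM and Angptl4 had 13.4, 15.2 and 16.3 CPM. These 6h values were above all values of the same gene at 0h and 24h. Of the lost genes only Glo1 was expressed enough to be tested, with 155, 150 and 159 CPM at 24h, against 146, 141 and 144 CPM at 0h, a log2 fold change of 0.11 ± 0.03 (SE, edgeR adjusted p = 0.016). Genes covered at 5d with intermediate coverage at 0h were not counted as a class in RNA. Dcn, which is among them, had 1.09, 1.19 and 1.13 CPM at 24h, against 1.85, 1.30 and 2.29 CPM at 0h. The log2 fold change of Dcn was -0.68 ± 0.21 (SE, edgeR adjusted p = 0.044). In bulk RNA, fewer cells with a transcript and less of it per cell cannot be told apart.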

How the data were processed

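Native ChIP-seq and poly(A) RNA-seq were made by the authors. Per the submitters' processing notes the tools were Bowtie 1.1.2, SICER 1.1, STAR 2.5.2b and others, on GRCm38. Each region deposited by the authors has a score in whole numbers and, in another column, a running number. Regions were called with SICER windows of 200 bases and gaps of 800, or 1000 and 4000, at a threshold of 0.01, per the file names. Each region list belongs to 1 sample, per the labels. The deposited RNA counts are raw reads per gene.

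Regions were merged and intersected with Python 3.11.15 on chromosomes 1 to 19, X and Y. Coordinates are GRCm38 and 1-based, and genes and promoter windows are RefSeq GRCm38.p6. Of 18415 genes 17966 were matched to an RNA row. RNA libraries held 29338093 to 37793178 counts. The 9 libraries were fitted together with edgeR 4.0.16 (filterByExpr, TMM, glmQLFit, glmQLFTest, time group only), and CPM are TMM-normalised in the RNA contrast and plain elsewhere. DESeq2 1.42.0 was an alternative. Both the RNA fit and the interval code were tested on simulated data. Shares have exact Clopper-Pearson intervals at 95%.

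Genes were named by a rule: the 10 longest and the 5 most expressed new, shared and lost genes, the 3 most covered members of each list, and the longest domains and regions. The members, the rule and the 21 gene lists were chosen with earlier results of these data known. The other ChIP libraries, with flavopiridol or GSK126, and the input were not used in these results.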

Additional observations from a re-analysis of the deposited data

How the results depend on the processing

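No ChIP result has a replicate, so each alternative is compared by size alone. With the 5d list of wider windows (1000 bases, gaps of 4000), against the unchanged 0h list, 94.9% of 0h bases lay in 5d regions, 36.5% of 5d bases in 0h regions, the ratio to independence was 4.94, 93.7% of 0h regions had 50% or more covered, 774 genes and 203 domains were new and 20.0% of silent genes were covered at 5d. With only regions above the median score of their list (5d first), these became 90.5%, 27.2%, 14.4 and 88.8%, while 67.3% of 5d regions had no 0h base, 27 genes were shared, 0 lost, 137 domains new and 0.365% of silent genes covered at 0h. The median score was 1 in both lists, so this limit left out 69.9% of the 0h regions and 53.3% of the 5d regions. Without chromosomes X and Y the ratio to independence was 6.27. At least 1 shared base held for 95.5% of 0h regions and 90% of their bases for 67.8%, and 59.3% of 5d regions had under 50% in 0h regions. With coverage limits of 50% and 10%, 236 genes were new, 582 shared and 22 lost, and with untrimmed genes 48 were new. Of domains of 100 kb or more 0 were new, and 1 new domain had no 0h base. With silent genes as those with 0 counts, 4.91% were covered at 5d and 2.204% at 0h. Of the bases of 5d regions with no 0h base, 53.9% lay in 24h regions, and within 100 kb of a 0h region lay 93.8% of the 5d bases outside the 0h pattern.

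Other alternatives were chosen after seeing the data. Without chromosomes 8, 15 and 17, 44.7% of 5d bases lay in 0h regions, the ratio to independence was 8.18, 92.3% of 0h regions had 50% or more covered, 52.6% of 5d regions had no 0h base, 76 genes were shared and 0 lost, 3.495% of silent genes were covered at 5d and 1.14% at 0h, and 62.5% of new bases lay in 24h regions. Where the other list skips no number, 2 genes were lost, 3 domains were new and 46.8% of 5d regions had no 0h base. The cause of these differences was not tested.

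In RNA, leaving out 1 replicate at a time gave 553 to 1148 called genes, against 971 with all. The count was lower by over 1.5 times when 0h replicate 1 (647 genes) or 2 (553 genes), or 24h replicate 2 (631 genes) or 3 (629 genes), was left out. No new gene was called under any RNA alternative. The replicate numbers did not pair the samples (correlations of -0.015 to 0.064), and with the replicate as a block 1027 genes were called, 0 of them new. Limits: 1 ChIP library per condition, an unknown read depth, an unstated score reference, and no RNA at 5d.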

Other observations

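Some new genes belong to families with 2 or more new members. The families were picked after their values were seen, so their counts are a description with no test. Over all genes 2.77% were covered at 5d, 1.44% at 0h, and 0.51% were new. Of 32 H2 histocompatibility genes 2 were new, and of 4 calcium homeostasis modulators 2. Of 26 prolactin-family genes, hormones made mainly by the pituitary and placenta, 7 were covered at 5d and 2 at 0h, and 4 were new (Prl2c2, Prl2c3, Prl3d3 and Prl7a2). Their mean coverage was 10.3% at 0h, 37.4% at 6h, 37.7% at 24h and 49.4% at 5d, while the mean of all genes was 8.50% at 5d and 4.98% at 0h. The number of prolactin-family genes without a covered base was 9 at 5d and 22 at 0h.

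Of 31 Rhox homeobox genes, a reproductive cluster on the X chromosome, 7 were covered at 5d and 3 at 0h, with Rhox2d, Rhox2g and Rhox2h new. Their mean coverage was 27.3% at 5d and 12.6% at 0h. Of 24 beta-defensins, secreted antimicrobial peptides, 4 were covered at 5d and 1 at 0h, and Defb22, Defb26, Defb38 and Defb48 were new. In the 5d list of wider windows, Rhox2d, Rhox2g, Rhox2h, Defb26 and Defb38 had 0% coverage, while Defb22 and Defb48 had 100%. The 4 new prolactin-family genes had 100% there. The 0h list skips running numbers at 2 of the 4 new prolactin-family genes, 2 of the 3 new Rhox genes and 3 of the 4 new beta-defensins. Members of these families can be near-identical copies, and how shared reads were assigned is not given in the sources used here, so their values are uncertain.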
